A study of Mus musculus with 18 samples.

Results

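The urokinase plasminogen activator system was followed through 3 genes: Serpinb2, Plau and Plaur. All 3 were rows of the deposited table of 11243 genes. They were chosen by name as the urokinase, its receptor and an inhibitor, and Serpinb2 was also selected on its polysome rise with LPS in these libraries. Its changes are therefore given as a description, without a test. RAW264.7 cells, an established mouse macrophage-like line transformed by Abelson virus, received vehicle (control), 500 ng/mL LPS (lipopolysaccharide of Salmonella) for 6 h, or the same LPS preceded by 15 min with 100 nM torin1, which blocks the kinase mTOR (LPS+torin1). Total mRNA and polysome mRNA, the fraction bound by several ribosomes, were sequenced from the same 9 lysates in 3 experiments, which gave 18 libraries of 27800983 to 47725557 counted reads. The groups share this single cell line and differ by agent, and torin1 without LPS was not analysed here.

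Plau encodes urokinase (uPA), the secreted protease that converts plasminogen to plasmin. Plaur encodes the urokinase receptor (uPAR), a lipid-anchored protein that holds urokinase at the cell surface. Serpinb2 encodes plasminogen activator inhibitor type 2 (PAI-2), a clade B serpin that can inhibit urokinase and is found largely inside the cell. Plasmin dissolves fibrin and cleaves matrix proteins, and macrophages use the system in migration and in clearing deposits. Serpinb2 is a well-known inflammatory gene of macrophages.

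The genes lie on 3 chromosomes of the mouse genome (build GRCm38, GENCODE M21), all on the plus strand. Serpinb2 (ENSMUSG00000062345.10) spans chr1:107511423-107535478, Plau chr14:20836660-20843385 and Plaur chr7:24462484-24475968. Their exons cover 2349, 2367 and 2617 bases. The exons of Serpinb2 share 291 bases with Serpinb10 on the same strand, and how the counting treated shared bases is not given in the sources used here.

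The 250 bases before the start sites of Serpinb2 and Plaur are shown because these were the 2 members whose level was higher with LPS in every experiment. The sequences are from RefSeq (GRCm38.p6), 5′ to 3′ on the plus strand, at chr1:107511173-107511422 and chr7:24462233-24462482. The table held an entry at the annotated start for 2 of the 3 genes, and Plau was not matched. Capitals mark letters that match a searched motif.
Serpinb2: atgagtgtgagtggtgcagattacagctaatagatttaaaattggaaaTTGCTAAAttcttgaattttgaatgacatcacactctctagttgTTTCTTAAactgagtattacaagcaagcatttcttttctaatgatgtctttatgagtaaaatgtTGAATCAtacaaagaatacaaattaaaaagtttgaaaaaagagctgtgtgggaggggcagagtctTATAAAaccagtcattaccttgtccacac
Plaur: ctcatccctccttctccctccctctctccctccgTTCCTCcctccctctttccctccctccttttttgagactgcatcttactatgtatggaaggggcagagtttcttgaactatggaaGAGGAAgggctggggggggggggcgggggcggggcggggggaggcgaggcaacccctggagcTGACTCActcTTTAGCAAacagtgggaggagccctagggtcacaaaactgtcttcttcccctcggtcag
Both held 1 match to the AP-1 motif TGANTCA, at bases -94 to -88 before the start of Serpinb2 and -69 to -63 before that of Plaur. Of 32851 promoters in the table (250 bases before to 50 after a start), 7.81% held this motif. The Serpinb2 sequence also held TATAAA at -29 to -24, present in 13.6% of promoters, and 2 matches to the C/EBP motif TTNNGNAA, present in 40.7%. The Plaur sequence held 1 match to the C/EBP motif and 2 to the PU.1 motif GAGGAA, which 28.3% of promoters held. TGACGTCA (CRE), present in 1.79% of promoters, and the NF-kB consensus, present in 4.51%, were in neither. Both strands were searched, no 2 matches overlapped, and a match is a run of letters and not a shown binding site.

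Serpinb2 was barely detected in control cells and reached at least 99.4 CPM with LPS. In total mRNA of control cells, experiments 1, 2 and 3 held 5, 19 and 3 reads of Serpinb2, or 0.152, 0.432 and 0.0879 CPM (reads per 1000000 of the TMM-scaled library). With LPS the same experiments gave 576, 191 and 114 CPM in total mRNA. The lowest LPS library was far above the highest control library, and experiment 1 was the highest of the LPS libraries. In such bulk lysates, more expressing cells and more mRNA in each cell cannot be told apart.

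In polysome mRNA, Serpinb2 stood at 0.364, 0.430 and 0.0566 CPM in the control libraries, from 16, 19 and 3 reads. LPS libraries held 373, 125.5 and 99.4 CPM in polysome mRNA. The ratio of LPS to control within an experiment was 1026 (95% interval from counting error 631 to 1795), 292 (187 to 485) and 1755 (600.2 to 8515). The width of the last interval reflects the 3 control reads. The fitted log2 fold change (log2FC) was 9.49 (SE, the standard error, 0.77) in polysome mRNA and 10.23 (0.86) in total mRNA, rank 2 of 11243 genes in both. Just above it in polysome mRNA was Il1b, the gene of the cytokine interleukin-1 beta, at a log2FC of 9.73, and just below it Csf3, the gene of the growth factor G-CSF, with 9.45.

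**Figure D1:**
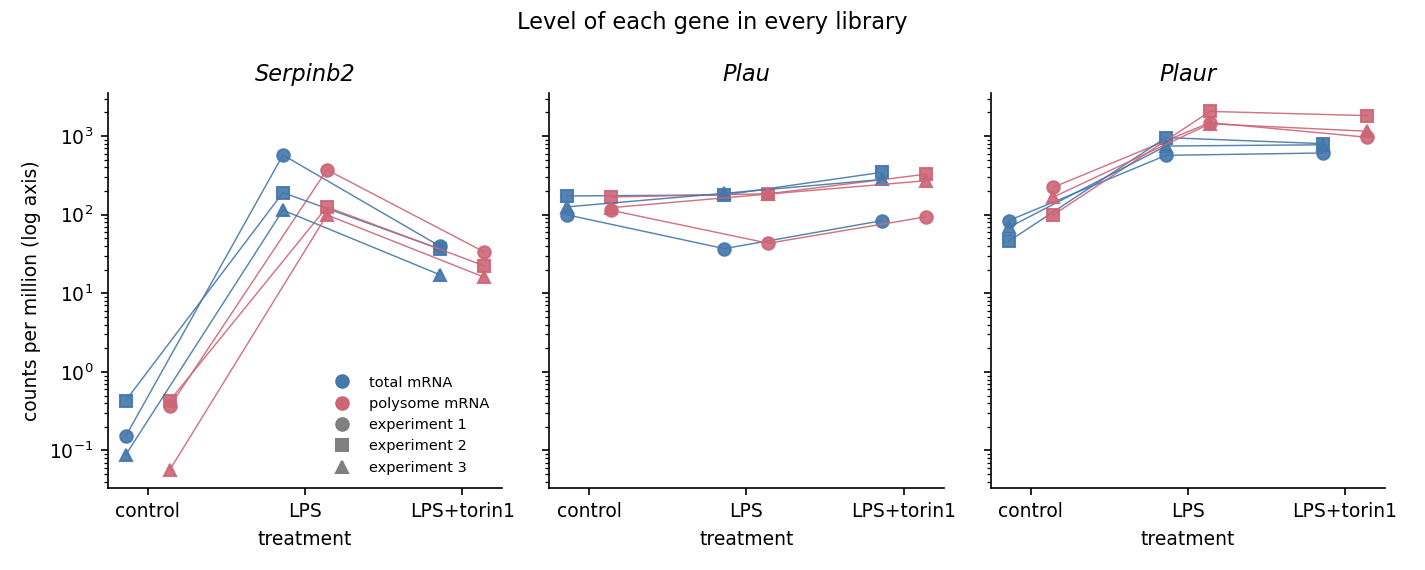
Level of Serpinb2, Plau and Plaur (CPM, log axis) in the 18 libraries by treatment, with total mRNA in blue, polysome mRNA in red, 1 symbol for each experiment and lines joining the libraries of 1 experiment. Serpinb2 goes from under 0.5 CPM in control to between 99.4 and 576 CPM with LPS and lower again with torin1, Plau of experiment 1 lies below the other experiments, and Plaur is at 570 CPM or more in every library with LPS, torin1 or not.

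Serpinb2 was lower with LPS+torin1 than with LPS alone. The LPS+torin1 libraries held 39.7, 36.5 and 17.2 CPM of Serpinb2 in total mRNA and 33.6, 22.4 and 16.1 CPM in polysome mRNA. Each of them was below every LPS library and above every control library, an order whose share among all genes was not counted. Against LPS, Serpinb2 fell in 3 of 3 experiments, at a fitted log2FC of -3.24 (SE 0.57) in total mRNA and -3.03 (0.54) in polysome mRNA. The fall was the 15th largest of 11243 in total mRNA and the 16th largest in polysome mRNA.

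Calls were made at a false discovery rate of 0.25 over all genes, the level the study used. At this level 53.7% of all genes were called between LPS+torin1 and LPS in total mRNA and 38.4% in polysome mRNA (20.3% higher, 18.2% lower). The LPS libraries in this comparison are those on which Serpinb2 was selected, so its fall is given as a description, without a test. Without experiment 1 the fall of Serpinb2 was -2.51 in total mRNA and -2.52 in polysome mRNA.

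Even with torin1, Serpinb2 stayed above control. The log2 fold change of LPS+torin1 against control was 6.996 (SE 0.82) in total mRNA and 6.46 (0.71) in polysome mRNA. Between these groups 66.7% of all genes were called in total mRNA and 58.2% in polysome mRNA. The control libraries here also entered the selection of Serpinb2, so this difference too is given without a test.

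Plaur rose with LPS, and no difference between LPS+torin1 and LPS was called for it. In total mRNA the control libraries of experiments 1, 2 and 3 held 84.1, 45.9 and 68.9 CPM of Plaur. The LPS libraries held 570, 958 and 748 CPM, and the groups did not overlap. How many of all genes separate in this way was not counted. In polysome mRNA, Plaur went from 222, 98.5 and 166 CPM in control to 1486, 2063 and 1435 CPM with LPS. Experiment 2 had the lowest control value and the highest LPS value in both kinds of mRNA.

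The rise of Plaur was called in both, at a log2FC of 3.52 (SE 0.26, adjusted p = 4.13e-06, edgeR) in total mRNA and 3.36 (0.35, adjusted p = 6.20e-05, edgeR) in polysome mRNA, or 11.4-fold and 10.2-fold. It was seen in 3 of 3 experiments. Of all genes, 66.5% were called between LPS and control in total mRNA and 55.1% in polysome mRNA (26.4% higher, 28.7% lower). Scaling by library totals alone moved the median gene by -0.39 on the log2 scale and gave 1539 genes higher and 6101 lower in polysome mRNA, against 2965 and 3226 here, with Plaur at 3.01. In the TMM-scaled fit, with the 11243 genes ranked from the largest rise, Plaur was at place 122 in total mRNA and 140 in polysome mRNA.

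With torin1 added, the Plaur libraries held 610, 802 and 776 CPM in total mRNA, within the range of the LPS libraries. The log2 difference from LPS was -0.06 (SE 0.23, adjusted p = 0.882, edgeR), and 2 of 3 experiments were higher and 1 lower. In polysome mRNA the torin1 libraries held 968, 1824 and 1154 CPM of Plaur, each below the LPS library of its experiment. There the log2 difference was -0.31 (SE 0.32, adjusted p = 0.559, edgeR) and was not called. Leaving out experiment 2 gave -0.44 with an edgeR adjusted p of 0.122, which would be called. Against control, Plaur with LPS+torin1 was higher by a log2FC of 3.46 (adjusted p = 3.78e-06, edgeR) in total mRNA and 3.05 (adjusted p = 9.74e-05, edgeR) in polysome mRNA.

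Plau, unlike its receptor, had no common direction with LPS. Total mRNA of control cells held 99.6, 173 and 126 CPM of Plau in experiments 1, 2 and 3. With LPS, total mRNA held 37.0, 179 and 187 CPM. Plau was lower with LPS in experiment 1, by 1.43 on the log2 scale (a log2 change of -1.43), near its control value in experiment 2 (0.05) and higher in experiment 3 (0.57). The polysome libraries gave 114, 168 and 122.97 CPM of Plau in control and 43.4, 185 and 183 CPM with LPS. The log2 changes in polysome mRNA were -1.39, 0.14 and 0.58, in the same order of experiments as those in total mRNA.

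The fitted difference of Plau between LPS and control was 0.02 (SE 0.58, adjusted p = 0.986, edgeR) in total mRNA and 0.03 (0.53, adjusted p = 0.978, edgeR) in polysome mRNA. Both SEs were close to the size of the change seen in experiment 3. Without experiment 1 the difference in total mRNA was 0.30 with an edgeR adjusted p of 0.226, which would be called as a rise, while in polysome mRNA it was 0.34 with an edgeR adjusted p of 0.397, not called.

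**Figure D2:**
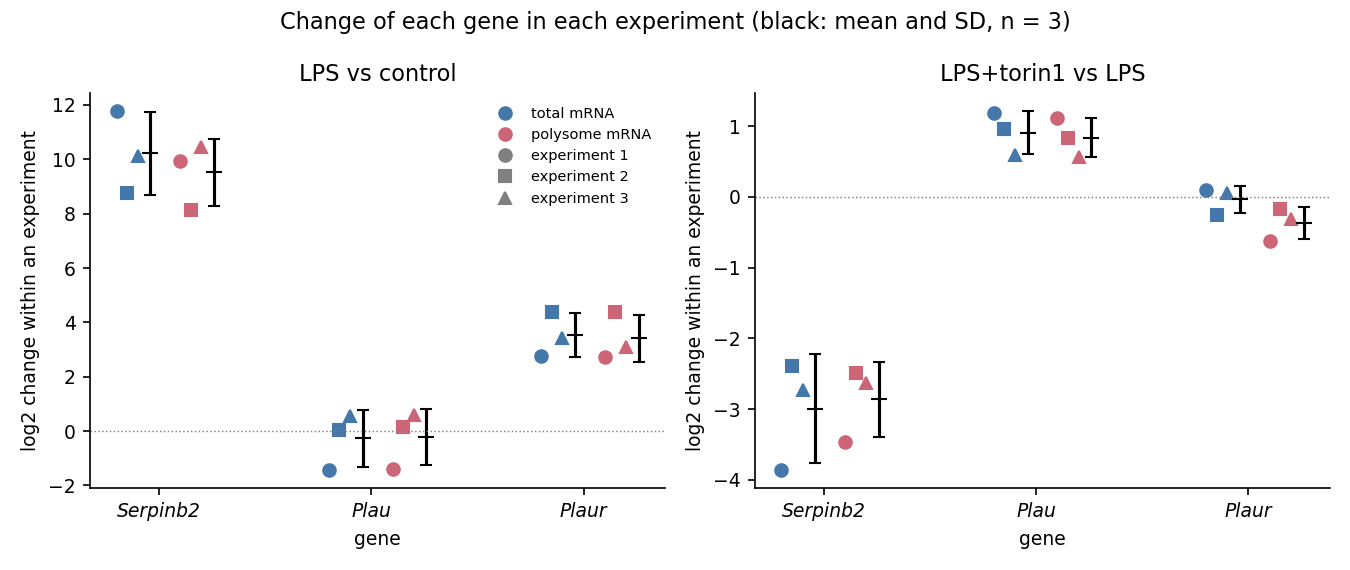
Log2 change of each gene within each experiment, for LPS vs control (left) and LPS+torin1 vs LPS (right), in total mRNA (blue) and polysome mRNA (red), with black bars for the mean and SD of 3 experiments and a separate scale for each panel. The Plau changes with LPS lie on both sides of 0 while its changes with torin1 are all above 0, between 0.56 and 1.18.

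Plau was higher with torin1 than with LPS alone in 3 of 3 experiments in both kinds of mRNA. The LPS+torin1 libraries held 84.0, 346 and 281 CPM of Plau in total mRNA and 93.9, 328 and 271 CPM in polysome mRNA. Within an experiment the ratio to LPS in total mRNA was 2.27, 1.94 and 1.50, and in polysome mRNA 2.16, 1.77 and 1.48. The groups overlapped, since experiment 1 lay below the other experiments at every treatment.

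This difference of Plau was not called in the fit that ignores the experiments. Its log2 fold change was 0.82 (SE 0.58, adjusted p = 0.322, edgeR) in total mRNA and 0.78 (0.53, adjusted p = 0.359, edgeR) in polysome mRNA. With the experiment as a replicate block it was called in both, at 0.86 (SE 0.31, adjusted p = 0.0510, edgeR) and 0.82 (0.32, adjusted p = 0.103, edgeR). Leaving out experiment 1 gave 0.77 (edgeR adjusted p = 0.0297) in total mRNA and 0.73 (edgeR adjusted p = 0.172) in polysome mRNA.

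Against control, Plau with LPS+torin1 was higher in experiments 2 and 3 and lower in experiment 1. The fitted log2 difference was 0.83 (adjusted p = 0.269, edgeR) in total mRNA and 0.80 (adjusted p = 0.267, edgeR) in polysome mRNA, just short of the call level. With the replicate block these became 0.58 (adjusted p = 0.147, edgeR) and 0.56 (adjusted p = 0.197, edgeR), both called. Without experiment 1 they were 1.08 (edgeR adjusted p = 0.00377) and 1.07 (edgeR adjusted p = 0.0238).

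Because the 3 genes moved differently, their proportions within a library changed. On the scale of CPM per kilobase of exon, total mRNA of control cells held 0.764, 0.240 and 0.494 Plaur per Plau in experiments 1, 2 and 3. With LPS the ratio of Plaur to Plau in total mRNA was 13.9, 4.85 and 3.62, and with LPS+torin1 it was 6.57, 2.10 and 2.50. In total mRNA the ratio was below 1 in every control lysate and above 1 in every LPS and LPS+torin1 lysate. In polysome mRNA it was 1.77, 0.530 and 1.22 in control, above 1 in experiments 1 and 3, and at least 3.86 in every lysate with LPS. Experiment 1 had the highest ratio at each treatment in both kinds of mRNA.

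Serpinb2 per Plau in total mRNA was at most 0.00251 in control. The same ratio was 15.7, 1.08 and 0.616 with LPS, and 0.476, 0.106 and 0.0616 with LPS+torin1. In polysome mRNA it was 8.67, 0.684 and 0.546 with LPS. The ratio was thus above 1 with LPS in experiment 1 in both kinds of mRNA and in experiment 2 in total mRNA alone, and below 1 with torin1 in all 3 experiments. These ratios are given as a description, since the Serpinb2 values behind them chose the gene.

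**Figure D3:**
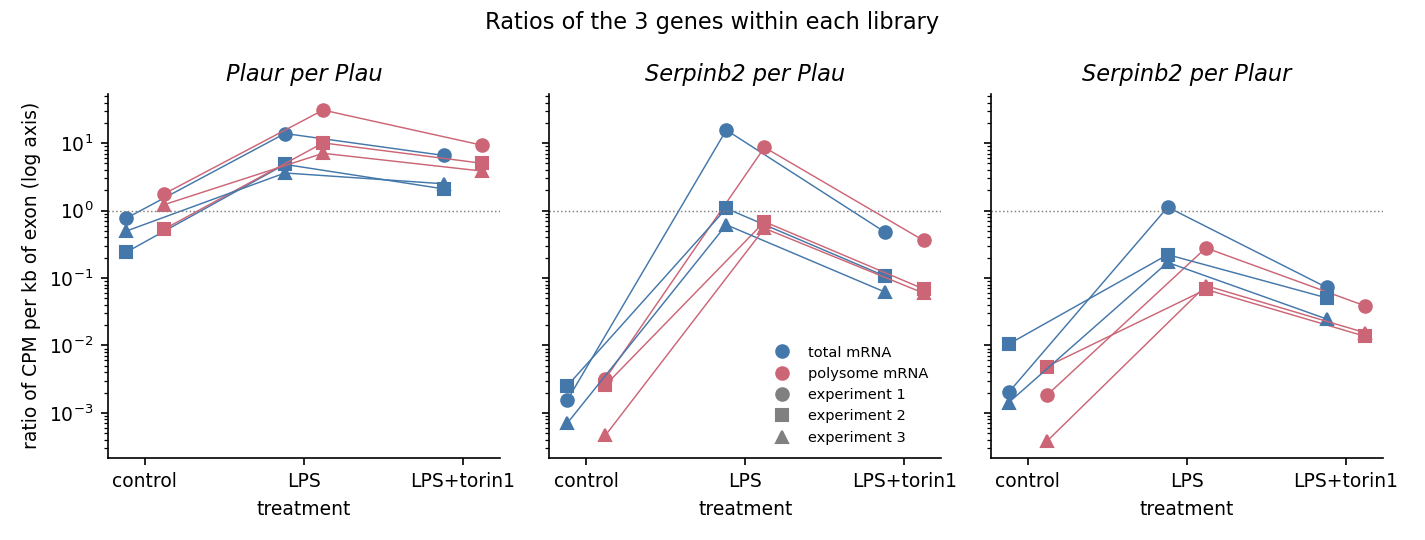
Ratio of Plaur to Plau, Serpinb2 to Plau and Serpinb2 to Plaur within each library (CPM per kilobase of exon, log axis) by treatment, with total mRNA in blue, polysome mRNA in red, 1 symbol for each experiment and a dotted line at equal levels. All 3 ratios are highest with LPS and intermediate with LPS+torin1 in every experiment.

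Polysome association was read as the polysome CPM over the total CPM of the same lysate, a value relative to the average gene of the libraries. For Plaur it was 2.40 ± 0.25 in control, 2.23 ± 0.35 with LPS and 1.78 ± 0.43 with LPS+torin1 (mean ± SD, n = 3). The torin1 value of Plaur fell below that of LPS in experiment 1, from 2.61 to 1.59, and in experiment 3, from 1.92 to 1.49, but not in experiment 2, which went from 2.15 to 2.27. Plau kept close to 1, at 1.03 ± 0.10 in control, 1.06 ± 0.10 with LPS and 1.01 ± 0.09 with LPS+torin1. Serpinb2 stood at 0.725 ± 0.125 with LPS and 0.799 ± 0.166 with LPS+torin1, and its control value of 1.34 ± 0.92 rests on 3 to 19 reads a library.

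Translation efficiency, tested as the difference between the polysome and the total log2 change, was not called for Plau or Plaur. Between LPS+torin1 and LPS the log2 difference in efficiency was -0.28 (SE 0.42) for Plaur and -0.07 (0.87) for Plau, each with an edgeR adjusted p of 1.00, and for Serpinb2, without a test, 0.19 (0.81). Between LPS and control it was -0.16 (0.42) for Plaur and 0.01 (0.87) for Plau, also with an edgeR adjusted p of 1.00, and for Serpinb2, without a test, -0.75 (SE 1.29). Leaving out single experiments moved the torin1 values of Plaur between -0.53 (without experiment 2) and -0.08 (without experiment 1), those of Serpinb2 between 0.0012 (without experiment 1) and 0.35 (without experiment 2), and the LPS value of Serpinb2 between -1.26 (without experiment 2) and -0.20 (without experiment 1). With each lysate as a block the SEs were smaller, at 0.18 for Plaur and 0.14 for Plau, and the torin1 difference of Plaur was -0.34 (adjusted p = 0.993, edgeR).

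The background of this measure was 0% of genes called in either comparison, at the same false discovery rate and a fold of at least 1.2. At an unadjusted p under 0.05 edgeR gave 44 genes between LPS and control and 110 between LPS+torin1 and LPS. With each lysate as a block it gave 164 and 303. All of these are below the share of 0.05 that unchanged genes would give. Neither fit therefore shows an uncalled gene to be unchanged, and the fit without the block also does not pair the 2 libraries of a lysate. With its own method the study reported changed efficiency for a subset of mRNAs after LPS. DESeq2 called 1 and 13 genes, the lysate block 0 and 25, and an analysis of partial variance 11 and 22, with neither Plau nor Plaur among them.

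**Figure D4:**
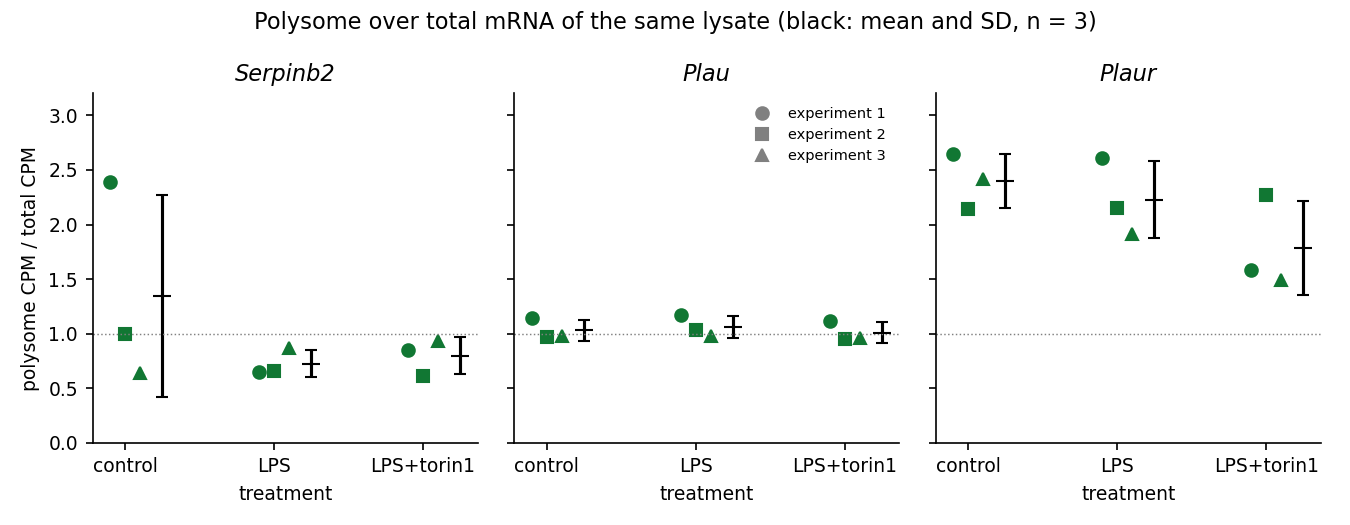
Polysome CPM divided by total CPM of the same lysate for Serpinb2, Plau and Plaur by treatment, with 1 symbol for each experiment, black bars for the mean and SD (n = 3) and a dotted line at 1. Plaur lies above 1 in all 9 lysates, Plau close to 1, and Serpinb2 below 1 in the LPS and LPS+torin1 lysates.

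Of the other activators and zymogens of the system, 1 of 6 listed genes was in the table. This was St14, the membrane protease matriptase, which had a log2 difference of -0.21 (adjusted p = 0.722, edgeR) between LPS and control in polysome mRNA. Plat, the tissue-type activator, and Plg, plasminogen itself, were among the listed genes that were not rows of the table. The lowest value of the table is 1, so that a gene without a read in any 1 library is absent from it.

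Of the receptors and docking proteins, 12 of 15 listed were in the table. With LPS, 8 of them were called higher and 1 lower in polysome mRNA, beside 26.4% and 28.7% of all genes, with a median log2 fold change of 0.47 against -0.03 over all genes. The counts were 10 and 2 with the replicate block, which called 3353 of all 11243 genes higher and 3709 lower. They were 4 (Itgam, Itga5, Itgb2 and Anxa2) and 2 when scaled by library totals, with 1539 of all genes higher and 6101 lower. The largest rise was that of Itgam, the alpha chain of the Mac-1 integrin that partners the urokinase receptor, at 2.03 (adjusted p = 1.67e-05, edgeR). Itga5, the alpha chain of the fibronectin receptor, rose by 1.57 (adjusted p = 0.00117, edgeR), Itgb2, the beta chain of Mac-1, by 0.81 (adjusted p = 0.00555, edgeR) and Anxa2, a plasminogen docking protein, by 0.74 (adjusted p = 0.00626, edgeR). Lrp1, the endocytic receptor that removes inhibitor-bound urokinase with its receptor, fell by 0.73 (adjusted p = 0.0216, edgeR), that is, a log2FC of -0.73.

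With torin1 against LPS, 1 of these 12 was called higher and 3 lower in polysome mRNA, beside 20.3% and 18.2% of all genes, so that the share called was near the background of 38.4%. The counts were 2 and 4 with the replicate block, which called 2851 of all 11243 genes higher and 2736 lower. Lrp1 rose by 0.73 (adjusted p = 0.0439, edgeR), opposite to its change with LPS. Itga5 had a log2FC of -1.08 (adjusted p = 0.0212, edgeR), while Itgam, at -0.19 (adjusted p = 0.467, edgeR), was not called.

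Among the other inhibitors analysed, 3 of 9 listed genes were in the table, and with LPS 1 was called higher and 1 lower in polysome mRNA, beside 26.4% and 28.7% of all genes. With the replicate block 2 were called higher and 1 lower, the added gene being Serpini1, beside 3353 higher and 3709 lower of all 11243 genes. Serpinb8, a clade B serpin, fell in both steps, at -0.95 (adjusted p = 0.0272, edgeR) with LPS and -1.46 (adjusted p = 0.0100, edgeR) with torin1 against LPS. Serpinb6a, another intracellular serpin, rose with LPS by 0.50 (adjusted p = 0.0836, edgeR), a call that was lost with library totals. Against LPS, Serpinb6a rose with torin1 by 0.37 (adjusted p = 0.243, edgeR), a call that was lost with DESeq2. Thus 1 of the 3 was called higher and 1 lower with torin1, beside 20.3% and 18.2% of all genes.

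Of the other clade B serpins, relatives of Serpinb2, 6 of 16 listed genes were in the table. With LPS, 3 of them were called higher and 0 lower in polysome mRNA, beside 26.4% and 28.7% of all genes. The share called in either direction was near the 55.1% of all genes. With the replicate block, and also with library totals, 3 were higher and 1, Serpinb1c, was lower. Of all 11243 genes, 3353 were higher and 3709 lower with the block, and 1539 and 6101 with library totals. Serpinb6b rose by a log2FC of 2.22 (adjusted p = 0.00947, edgeR), Serpinb9b by 1.50 (adjusted p = 0.0268, edgeR) and Serpinb9, whose product inhibits granzyme B, by 1.34 (adjusted p = 0.0128, edgeR). Their levels with LPS were low, at 7.03, 3.91 and 18.8 CPM, against 199 CPM for Serpinb2. With torin1 against LPS, 1 of the 6 was called higher and 1 lower in polysome mRNA, beside 20.3% and 18.2% of all genes. The higher one was Serpinb9b, at a log2FC of 1.62 (adjusted p = 0.0338, edgeR). The counts were 2 and 1 with the replicate block, which called 2851 of all 11243 genes higher and 2736 lower. Some Serpinb genes are close copies of each other, and how the counting treated reads that match more than 1 gene is not given in the sources used here.

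The downstream list of substrates and proteases had 4 of 15 genes in the table, and all 4 were called higher with LPS in polysome mRNA, beside 26.4% of all genes. Mmp14, a membrane-bound matrix metalloproteinase, went from 0.272 to 36.6 CPM on average, a log2FC of 7.06 (adjusted p = 1.80e-06, edgeR). Mmp9, the gelatinase that plasmin can activate, rose by 6.32 (adjusted p = 6.75e-06, edgeR), Mmp2 by 1.15 (adjusted p = 0.0400, edgeR) and Tgfb1, a latent growth factor released by plasmin, by 1.09 (adjusted p = 0.0430, edgeR). Mmp2 was low, at 0.773, 1.02 and 0.642 CPM in control and 2.02, 1.11 and 2.29 CPM with LPS in experiments 1, 2 and 3. Tgfb1 went from 149, 76.4 and 122 CPM in control to 160, 358 and 222 CPM with LPS, with little change in experiment 1. With torin1 against LPS, Mmp14 rose further, by 0.80 (adjusted p = 0.0839, edgeR), and the other 3 were not called. With the replicate block Mmp9, at -0.44 in the fit without it, was called lower (adjusted p = 0.125, edgeR).

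**Figure D5:**
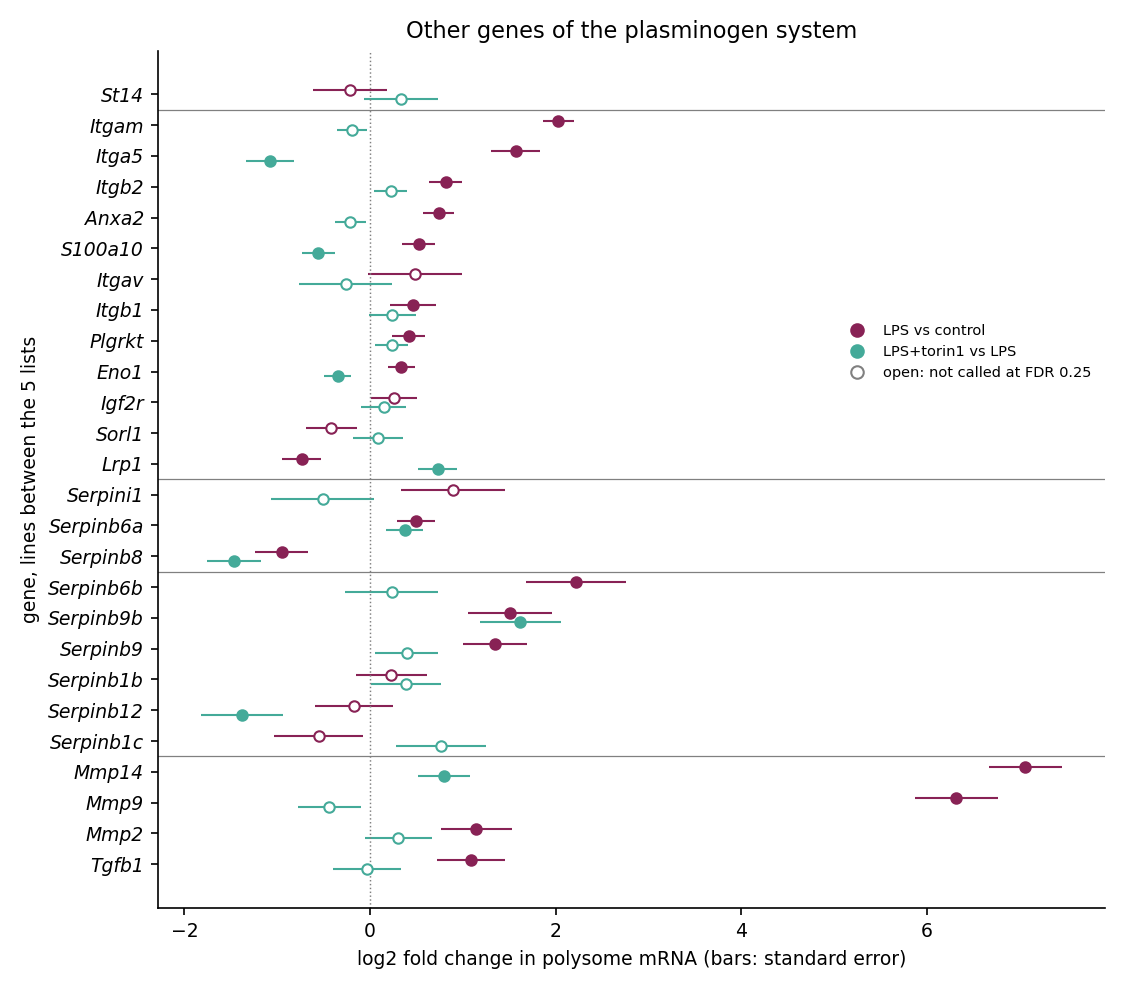
Log2 fold change in polysome mRNA, with its SE, of the other genes of the plasminogen system and the other clade B serpins analysed here, for LPS vs control (purple) and LPS+torin1 vs LPS (green), with filled points for genes called at a false discovery rate of 0.25 and lines between the 5 lists. Serpinb8 lies at -0.95 for LPS and -1.46 for torin1, to the left of 0 in both, and Mmp14 and Mmp9 lie furthest to the right.

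The genes whose levels followed each member most closely were found by Pearson's r of log2 CPM over the 18 libraries among 10337 genes with a mean of at least 1 CPM. Libraries of 1 lysate are not independent, so r is a description. For Serpinb2 they were Nfkbiz (r = 0.983), Zc3hav1, Vegfc, Map3k8 and Il1a (r = 0.980). For Plaur they were Plk3 (r = 0.993), Rhbdf2, Zc3h12a, Smox and Bcl2l1 (r = 0.978). For Plau r was lower, from 0.890 for Rcsd1 through Myh14, C77080 and Tmem154 to 0.852 for Snx9. By Spearman's rho the 5 closest genes shared 1, 3 and 2 members with these lists of Serpinb2, Plaur and Plau.

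The macrophage markers were all in the table, 10 of 10, at a sum of 12333 to 19807 CPM in control, 13768 to 22175 CPM with LPS and 11535 to 17760 CPM with LPS+torin1. None of the listed fibroblast, epithelial and lymphocyte markers was a row of the table, and 2 of 4 endothelial ones were, at up to 5.34 CPM. Of 5 neutrophil markers only S100a8 was present, at 0.114 to 0.415 CPM in control and 2.10 to 7.74 CPM with LPS. Of 6 osteoclast markers 5 were present, at 175 to 314 CPM in control and 102 to 246 CPM with LPS. Their part in the changes of Serpinb2, Plau and Plaur was not tested.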

How the data were processed

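RAW264.7 total mRNA and polysome-associated mRNA (polysome mRNA) were sequenced in 18 libraries (3 treatments, 3 experiments). The deposited values are raw counts per gene, which the authors made with Hisat2 on GRCm38 and featureCounts on Ensembl annotation, keeping protein-coding genes. CPM were computed from them. The table holds 11243 genes, none below 1 in any library, so genes with a 0 are absent, and low genes are selected. Treatments and experiment numbers came from the labels. Members and gene lists were chosen with earlier results of these data known. A gene of the inhibitor list is not reported here and was left out of its counts.

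Counts were scaled by TMM (factors 0.875 to 1.18) and tested with edgeR 4.0.16 in R 4.3.3 (quasi-likelihood, Benjamini-Hochberg over all genes, false discovery rate 0.25), with the 9 libraries of an RNA type in a fit and, for translation efficiency, an interaction in all 18. Standard errors were derived from the fold change and its F value. The study used anota2seq, which was not run here. An analysis of partial variance was written in its place as an alternative, and limma 3.58.1 and DESeq2 1.42.0 were also used. The tests were checked on simulated data whose libraries were drawn independently, so that check did not cover shared lysates or experiments. Replicates of a group differed by more than counting noise (chi-square per degree of freedom at least 26.3). P-values measure the spread between 3 experiments on 1 line, and counting intervals cover counting error only.

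Total and polysome libraries of a number come from the same lysate by the study's methods. Deviations of same-numbered samples from their group means correlated at 0.15 to 0.42 in total mRNA (9 of 9 pairs above 0.1) and at -0.09 to 0.74 in polysome mRNA (5 of 9), so the numbers were taken to pair the lysates, from total mRNA, and the fit with a replicate block is printed beside a member's result or a list's count where it changed it. Genes named from the lists were those called in polysome mRNA for LPS vs control, at most 5 for each list by size of change, or the most abundant gene of a list with none called. Genes next to Serpinb2 in rank and the 5 genes most correlated with each member were also named. Alternatives were DESeq2, a mean of at least 1 CPM, a false discovery rate of 0.05, leaving out each experiment, the replicate block, only the 2 treatments compared, and one model over all libraries.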

Additional observations from a re-analysis of the deposited data

How the results depend on the processing

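In total and polysome mRNA, the comparisons of Plaur against control kept direction and call under every alternative run. The untested LPS and torin1 changes of Serpinb2 kept their direction. Plau depended on the processing. Its LPS difference of 0.02 in total and 0.03 in polysome mRNA became -0.29 and -0.26 with the replicate block and -0.33 and -0.32 with library totals (chosen after seeing the data), and ran from -0.34 to 0.30 and from -0.29 to 0.34 when single experiments were left out. With LPS+torin1 against LPS, the replicate block gave 0.86 (total) and 0.82 (polysome), and leaving out single experiments 0.70 to 0.99 and 0.71 to 0.93. Against control, the block gave 0.58 and 0.56, only the 2 treatments compared gave 0.83 and 0.80 (called), and leaving out single experiments 0.66 to 1.08 and 0.63 to 1.07. Plaur with torin1 against LPS was 0.0049 in total mRNA with library totals, -0.11 to 0.073 without single experiments, and -0.44 to -0.20 in polysome mRNA. In translation efficiency, uncalled signs turned for Plau (DESeq2 -0.0018 with LPS, leave-one-out -0.053 to 0.033, partial variance 0.031 with torin1). The untested values of Serpinb2 also turned under partial variance, to -0.11 with torin1 and from -0.75 to 0.11 with LPS. The causes were not tested.

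At a false discovery rate of 0.05 the genes called in polysome mRNA fell to 3654 (LPS vs control), 1557 (LPS+torin1 vs LPS) and 3950 (LPS+torin1 vs control), and in total mRNA to 3279 (LPS+torin1 vs LPS). Leaving out single experiments gave 3901 to 7251, 1187 to 5182 and 4156 to 7627 genes in polysome mRNA, and 3959 to 5385 in total mRNA for LPS+torin1 vs LPS. Without experiment 1, 3901 genes were called for LPS vs control and 1782 for LPS+torin1 vs LPS in polysome mRNA, and without experiment 3, 1187 for LPS+torin1 vs LPS and 4156 for LPS+torin1 vs control. For translation efficiency, DESeq2 called 1 and 13 genes, partial variance 11 and 22, and the block 0 and 25, against 0 and 0. The block changed no other call of Plau or Plaur. The low control reads of Serpinb2 limit the precision of its folds and of its control polysome ratio.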
